A study of Mus musculus with 4 samples.

Results

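Integrins are the cell surface receptors that join the extracellular matrix to the actin or keratin cytoskeleton. Each is a dimer of an alpha and a beta chain, and the pairing sets the ligand. The dimers α3β1, α6β1 and α6β4 bind laminins, the glycoproteins of basement membranes. By contrast, α5β1, α4β1, α8β1 and the αv dimers bind fibronectin or other ligands, most of them through an RGD tripeptide. In the mouse embryo the fibronectin receptors are known for their part in mesoderm and somite formation, and the laminin receptors for holding epithelia to the basement membrane. The genes described here are 10 integrin subunits, picked by symbol from the 24831 genes of the count tables: Itga3, Itga6 and Itgb4 as laminin-binding subunits, Itga4, Itga5, Itga8, Itgav, Itgb5 and Itgb8 as fibronectin-binding and other RGD-binding subunits, and Itgb1, the beta chain common to both classes. All 10 were among the 13602 genes with enough reads to be tested.

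The RNA came from somitic gastruloids, mouse stem cell aggregates that lengthen and segment in culture. All libraries came from E14 triple reporter cells in which the endogenous Zeb2 gene, coding for a zinc finger repressor of epithelial genes, carries an HA epitope and the FKBP12F36V degron. They were grown from 300 cells per well, treated with 3 μM CHIR99021, a WNT pathway activator, after 48 h, and placed in 10% Matrigel at 96 h. Matrigel is a basement membrane extract rich in laminin, so every library had laminin supplied from outside. The dTAG-13 group (2 libraries) received 100 nM dTAG-13, the compound that targets the tagged protein for degradation, at 72 h and 96 h. The other group (2 libraries) is titled untreated, and the culture protocol names DMSO as control. Libraries are numbered 1 and 2 in both groups. No label says that they came from separate cultures or clones, so they may not stand for independent cultures. The spread behind each p-value is that of these libraries, and its source was not tested. The chi-square per degree of freedom, which sets count differences against counting error, was 30.9 between the dTAG-13 replicates and 36.3 between the untreated ones. Between the groups it was 24.9 in number 1 and 22.9 in number 2.

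Reads counted in genes came to 11491330 to 12716172 per library, and those of the 10 subunits to 12414 and 10058 in the dTAG-13 libraries and 11479 and 9847 in the untreated ones. Reads outside genes made up 25.3% and 29.2% of the counted reads with dTAG-13 and 35.7% and 24.1% in untreated libraries, with untreated replicate 1 the highest. Zeb2 mRNA was at 103 and 108 CPM (read counts scaled to library size, with TMM factors) with dTAG-13 and at 98.3 and 164 CPM in untreated gastruloids; the compound acts on the protein, so this level does not check the labels. Somite and presomitic genes were present and lower in the dTAG-13 libraries: 15 of 16 such genes had a fold change below 1. Of all genes tested, 50.9% had a fold change above 1. The summed level of the somite and presomitic genes was 434 and 280 CPM with dTAG-13 and 606 and 482 CPM in untreated gastruloids. RNA came from whole aggregates, so fewer cells of a type and less RNA per cell cannot be told apart.

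Because the tagged protein is a repressor known to bind the E-box CACCTG, the promoters of the subunits were read for those letters. RefSeq windows of the 250 bases before a start site (GRCm38.p6) were at hand for 8 of the 10 genes, all but Itga6 and Itgb4. Of the 8, 3 held CACCTG or, on the other strand, CAGGTG, against 17.1% of 27025 windows of all genes. For Itga3, Itga8 and Itgav that start site lies inside the gene span given below. Part of the window of Itga3 and Itga8, and all of that of Itgav, is therefore inside the gene. The 3 windows with a match are shown in the direction of transcription, with the E-box in capitals. They are the windows of Itga3 and Itgb5, the subunits with the smallest p-values below, and of Itgb8, whose level differed little between the groups. A match is a run of letters in a window and not evidence of binding.
Itga3 (chr11:95076715-95076964, minus strand): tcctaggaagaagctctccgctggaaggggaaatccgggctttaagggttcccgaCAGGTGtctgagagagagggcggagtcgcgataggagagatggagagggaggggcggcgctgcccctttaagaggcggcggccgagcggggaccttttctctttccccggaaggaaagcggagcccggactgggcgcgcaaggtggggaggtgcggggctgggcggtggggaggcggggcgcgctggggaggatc
Itgb5 (chr16:33829415-33829664, plus strand): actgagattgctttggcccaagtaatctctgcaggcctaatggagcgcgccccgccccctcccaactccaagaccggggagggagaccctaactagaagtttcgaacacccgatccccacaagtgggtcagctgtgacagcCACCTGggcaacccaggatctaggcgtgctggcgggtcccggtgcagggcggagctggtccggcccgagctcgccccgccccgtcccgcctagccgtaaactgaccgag
Itgb8 (chr12:119238277-119238526, minus strand): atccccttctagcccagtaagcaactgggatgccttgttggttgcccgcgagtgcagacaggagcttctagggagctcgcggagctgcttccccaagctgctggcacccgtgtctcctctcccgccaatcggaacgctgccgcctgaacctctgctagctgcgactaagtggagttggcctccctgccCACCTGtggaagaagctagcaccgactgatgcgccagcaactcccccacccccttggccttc
The match began 195 bases before the start site of its window in Itga3, 109 before it in Itgb5 and 62 in Itgb8.

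Levels of different subunits were ranked per length, as CPM per kilobase of the summed exons of each gene in GENCODE M21. Ratios between subunits given further on are not scaled to length unless stated, and serve to compare libraries and not genes. Itgb1, the partner of most of the alpha chains here, was the most abundant, with a mean over the 4 libraries of 89.3 CPM per kilobase (lowest 76.9, highest 111). Itga6 followed at 25.5 and Itgb5 at 23.8 CPM per kilobase, and their ranges over the libraries overlapped. Next came Itga5 at 10.1, Itgav at 9.64, Itga3 at 6.49 and Itga8 at 3.14 CPM per kilobase, each with a range that overlapped that of the next. Itgb4 at 1.00 and Itgb8 at 0.761 CPM per kilobase also overlapped, and Itga4 was lowest at 0.390, below every library of Itgb8. The most abundant alpha chain of these gastruloids was therefore the laminin-binding Itga6 in all 4 libraries (21.3 to 31.7 CPM per kilobase). Of the fibronectin-binding and RGD-binding alpha chains, Itga5 was highest in both libraries numbered 1 (13.5 with dTAG-13 and 12.4 in untreated gastruloids) and Itgav in both numbered 2 (8.18 with dTAG-13 and 9.13 in untreated gastruloids).

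**Figure D1:**
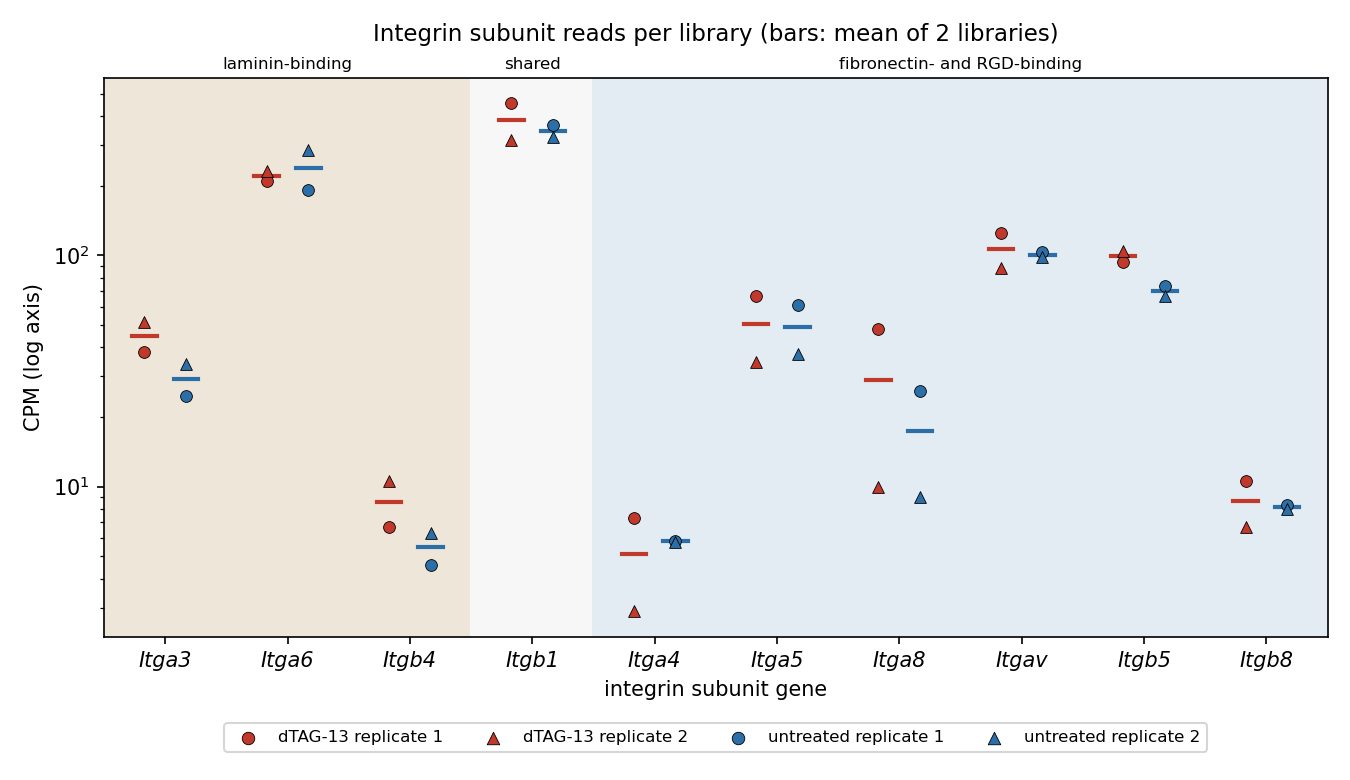
CPM (log axis, not scaled to gene length) of each integrin subunit gene in each library, with dTAG-13 libraries in red left of untreated libraries in blue, circles for replicate 1, triangles for replicate 2 and bars for the mean of 2 libraries. Both dTAG-13 libraries lie above both untreated ones for Itga3, Itgb4 and Itgb5. Itga4, Itga5, Itga8, Itgav, Itgb1 and Itgb8 are lower in both replicate 2 libraries than in both replicate 1 libraries, Itga4 only narrowly.

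The comparison of dTAG-13 with untreated gastruloids asked whether loss of the Zeb2 protein went with a change in these receptors. Itga3, Itgb4 and Itgb5 had higher levels in both dTAG-13 libraries than in either untreated one, by fitted factors of 1.54, 1.58 and 1.41. The other 7 subunits overlapped between the groups, among them Itga6 and Itgb1, the most abundant of the alpha and beta chains, at fitted factors of 0.924 and 1.11. No subunit passed an adjusted p of 0.05 over the 13602 genes in edgeR's quasi-likelihood test, as no gene did (0% of genes called, 479 at an unadjusted p under 0.05), and DESeq2 called 39 genes and none of the 10. At an unadjusted p under 0.05, edgeR gave 2 of the 10 subunits, both higher with dTAG-13, where 2.29% of all genes were higher and 1.23% lower at that level. Groups that did not overlap were seen in 3 of the 10, all higher, against 14.4% of all genes higher and 11.9% lower in that way.

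Among the laminin-binding subunits, Itga3 codes for the alpha chain of α3β1, a receptor for the laminins of epithelial basement membranes. It lies on chromosome 11 (95044475 to 95076844 in GRCm38.p6). Itga3 was at 38.2 and 51.5 CPM with dTAG-13 and at 24.7 and 33.7 CPM in untreated gastruloids, from 328 to 607 reads a library. Both dTAG-13 libraries were higher than both untreated ones, and replicate 2 was the higher in each group. The gap between dTAG-13 replicate 1 and untreated replicate 2 was smaller than that between the replicates of either group. Its means were 44.9 ± 9.42 and 29.2 ± 6.37 CPM (SD, n = 2 each), and its log2 fold change was 0.62 ± 0.22 (SE; unadjusted p = 0.0283, adjusted p = 1.00 by edgeR). The ratio of dTAG-13 to untreated was 1.55 between the libraries numbered 1 (95% exact conditional interval 1.34 to 1.79) and 1.53 between those numbered 2 (1.34 to 1.74). Such intervals take in counting error alone, and PCR copies, unmarked by molecular identifiers, make them too narrow.

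Itgb4 codes for the beta chain that pairs with α6 alone and ties laminin to keratin filaments at hemidesmosomes of stratified epithelia. The gene (chromosome 11, 115974725 to 116008412) had few reads, 78 and 124 with dTAG-13 and 61 and 71 in untreated gastruloids. Its level was 6.65 and 10.5 CPM with dTAG-13, against 4.59 and 6.32 CPM in untreated libraries. The groups did not overlap, but dTAG-13 replicate 1 exceeded untreated replicate 2 by less than the replicates of either group differed. The log2 fold change was 0.66 ± 0.37 (unadjusted p = 0.121, adjusted p = 1.00), and it was 0.27 without dTAG-13 replicate 2.

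Itga6, the alpha chain of α6β1 and α6β4, is a laminin receptor of stem cells and epithelia (chromosome 2, 71786886 to 71858427). It was at 210 and 232 CPM with dTAG-13 and at 192 and 286 CPM in untreated gastruloids. Both dTAG-13 libraries fell between the untreated ones. The log2 fold change was -0.11 ± 0.21 (adjusted p = 1.00), and the direction differed between numbers: the dTAG-13 to untreated ratio was 1.09 (counting interval 1.03 to 1.15) in number 1 and 0.811 (0.771 to 0.854) in number 2. Counts were taken per gene, so the splice forms of the α3 and α6 tails were not told apart.

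The laminin-binding alpha chains thus did not move together. Itga6 had 5.49 and 4.50 reads for each read of Itga3 in the dTAG-13 libraries and 7.77 and 8.47 in the untreated libraries. This ratio was lower in both dTAG-13 libraries than in both untreated ones. It was singled out after the values were seen, and 2 libraries a group are too few for an exact test of it.

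**Figure D2:**
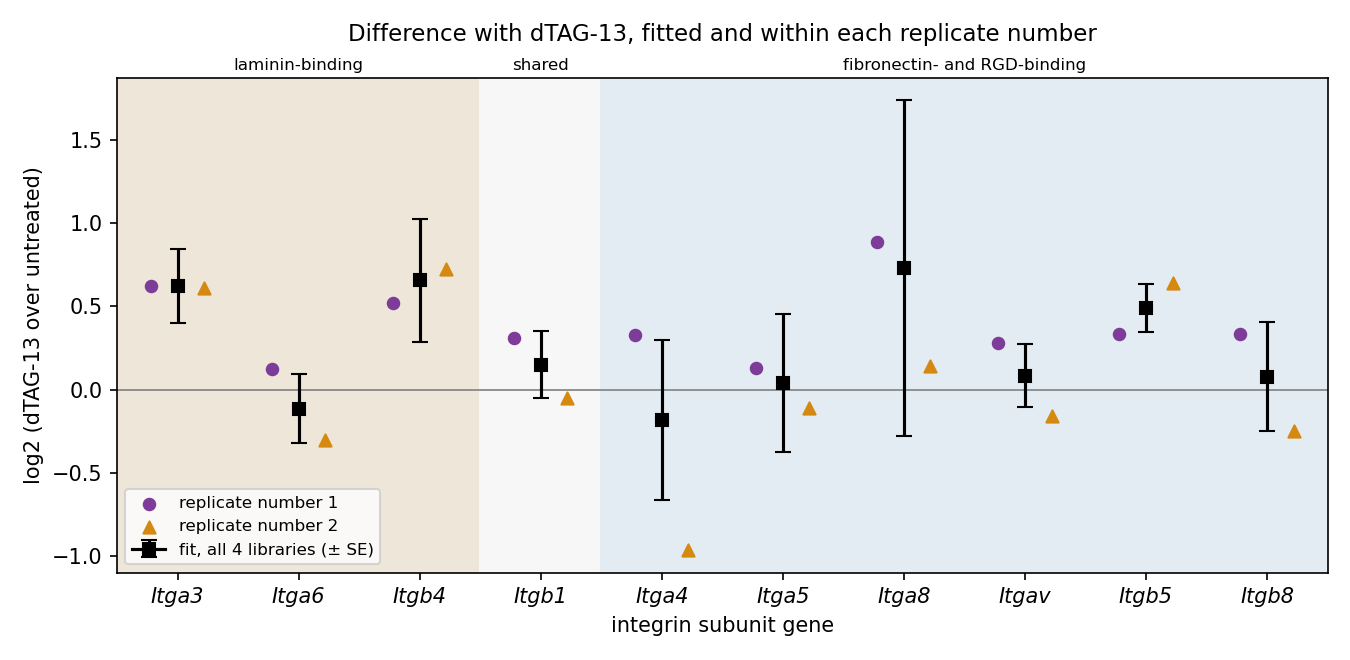
Log2 difference of dTAG-13 over untreated for each subunit: black squares are the edgeR fit over all 4 libraries with its SE, purple circles the difference between libraries numbered 1 and orange triangles that between libraries numbered 2. Itga3, Itgb4, Itgb5 and Itga8 are above 0 in both numbers, and the other 6 subunits are above 0 in number 1 and below 0 in number 2.

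Itgb1 (chromosome 8, 128685654 to 128733579) is the beta chain of most laminin and fibronectin receptors. It was at 453 and 314 CPM with dTAG-13 and at 366 and 325 CPM in untreated gastruloids, with the highest and the lowest value both in dTAG-13 libraries. Its log2 fold change was 0.15 ± 0.20 (adjusted p = 1.00), and -0.14 without dTAG-13 replicate 1.

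Of the fibronectin-binding and RGD-binding subunits, Itgb5 had the smallest p-value of the 10 genes. It codes for the β5 chain of αvβ5, a receptor of vitronectin, and lies on chromosome 16 (33829665 to 33949338). Itgb5 was at 93.4 and 104 CPM with dTAG-13 and at 73.9 and 66.6 CPM in untreated gastruloids. Both dTAG-13 libraries were higher, and the gap between the groups was wider than that between the replicates of either. Means were 98.8 ± 7.62 and 70.3 ± 5.13 CPM (SD, n = 2 each), with a log2 fold change of 0.49 ± 0.14, an unadjusted p of 0.0115 and an adjusted p of 0.964 by edgeR (0.746 by DESeq2). The dTAG-13 to untreated ratio was 1.26 (counting interval 1.16 to 1.38) in number 1 and 1.56 (1.43 to 1.71) in number 2.

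Itgav (chromosome 2, 83722303 to 83806917), the only alpha partner of β5 and β8, was at 125 and 87.9 CPM with dTAG-13 and at 103 and 98.1 CPM in untreated gastruloids. The untreated libraries lay between the dTAG-13 ones, and the log2 fold change was 0.08 ± 0.19 (adjusted p = 1.00). The ratio of Itgb5 to Itgav CPM was 0.745 and 1.19 with dTAG-13 and 0.718 and 0.679 in untreated gastruloids. The dTAG-13 libraries were thus higher, but the first by little. This ratio was not planned beforehand. Itgb8 (chromosome 12, 119162803 to 119238276), the β chain of αvβ8, which is known for releasing active TGF-β, was at 10.6 and 6.71 CPM with dTAG-13 and at 8.36 and 8.01 CPM in untreated gastruloids. Its log2 fold change was 0.08 ± 0.33 (adjusted p = 1.00), with the untreated values again inside the range of the dTAG-13 ones.

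Itga5 (chromosome 15, 103344286 to 103366791), the alpha chain of the main fibronectin receptor α5β1, was at 66.7 and 34.6 CPM with dTAG-13 and at 60.9 and 37.3 CPM in untreated gastruloids. Values followed the replicate number and not the group: both libraries numbered 1 were at or above 60.9 CPM and both numbered 2 at or below 37.3 CPM. The log2 fold change was 0.04 ± 0.41 (adjusted p = 1.00). Itga8 (chromosome 2, 12106632 to 12301985), the alpha chain of α8β1, a receptor of nephronectin and fibronectin on mesenchymal cells, showed the same split more widely. It was at 47.9 and 9.94 CPM with dTAG-13 and at 25.8 and 8.99 CPM in untreated gastruloids. Its log2 fold change of 0.73 ± 1.01 was the largest of the 10 and had the largest error (adjusted p = 1.00). Without dTAG-13 replicate 1 it was -0.81, and without untreated replicate 1 it was 1.67. Itga8 was the subunit of the 10 that differed by at least 1 on the log2 scale between the replicate numbers in both groups, with the same sign; 4.02% of all genes did so. Within numbers the dTAG-13 to untreated ratio of Itga8 was 1.86 in number 1 (counting interval 1.62 to 2.13) and 1.11 in number 2 (0.840 to 1.46).

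Itga4 (chromosome 2, 79255426 to 79333114), the alpha chain of α4β1, which binds VCAM1 and fibronectin, was at 7.34 and 2.89 CPM with dTAG-13 and at 5.80 and 5.78 CPM in untreated gastruloids. It had 34 to 86 reads a library. The untreated libraries were nearly alike and lay between the dTAG-13 ones, and the log2 fold change was -0.18 ± 0.48 (adjusted p = 1.00). The dTAG-13 to untreated ratio was 1.26 in number 1 (counting interval 0.919 to 1.74) and 0.499 in number 2 (0.320 to 0.767). Cerkl overlaps Itga4 on the opposite strand and had 4 to 8 reads, and whether counting used the strand is not stated in the labels.

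Set side by side, the median log2 fold change was 0.62 for the 3 laminin-binding subunits and 0.08 for the 6 fibronectin-binding and RGD-binding ones. The median of all genes tested was 0.0040. With 3 genes the laminin-binding median is the value of a single gene, here Itga3, and does not describe Itga6, at -0.11. In number 1 the medians were 0.52 and 0.33, and in number 2 they were 0.61 and -0.13. The laminin-binding median was 0.27 when dTAG-13 replicate 2 was left out and 0.40 when untreated replicate 1 was. The other median was -0.40 with dTAG-13 replicate 1 left out, and with dTAG-13 replicate 2 left out it was 0.37. Each class held members on both sides of 0: Itga6 was below it in the first and Itga4, at -0.18, in the second. The highest of the second class were Itgb5 and Itga8, at 0.49 and 0.73. In both numbers 4 of the 10 subunits were higher with dTAG-13, against 27.7% of all genes, none was lower, against 23.9%, and 6 had opposite directions, against 48.4%.

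**Figure D3:**
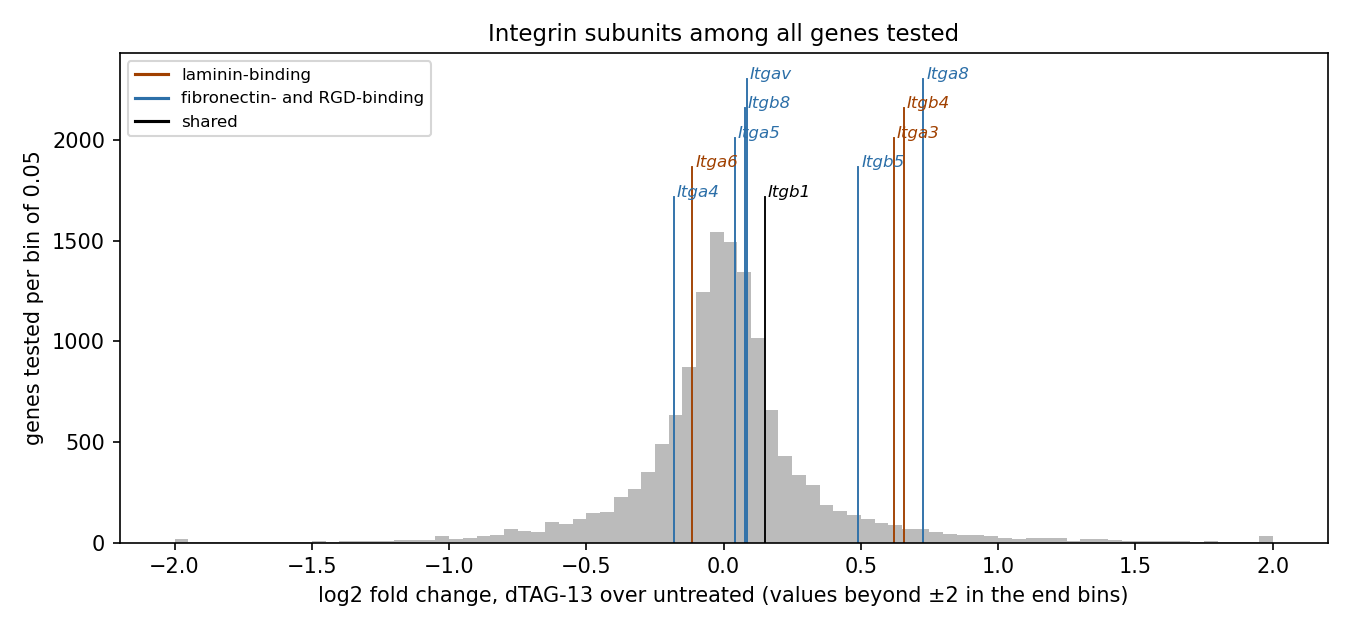
Histogram of the log2 fold change of dTAG-13 over untreated for the 13602 genes tested, with a line at each integrin subunit, coloured by class. The lines of 6 subunits stand between -0.18 and 0.15, and Itgb5, Itga3, Itgb4 and Itga8 stand at 0.49 to 0.73.

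The balance of the alpha chains was taken as the log2 ratio of the summed CPM of Itga3 and Itga6 to that of Itga4, Itga5, Itga8 and Itgav. It was 0.0040 and 1.07 in the dTAG-13 libraries and 0.15 and 1.09 in the untreated ones. From CPM per kilobase it was -0.11 and 1.05 in the dTAG-13 libraries and -0.014 and 1.04 in the untreated ones. The ratio was high in both libraries numbered 2 and low in both numbered 1, and the groups overlapped. The summed laminin-binding alpha chains were at 248 and 283 CPM with dTAG-13 and 217 and 319 CPM in untreated gastruloids, and the fibronectin-binding ones at 247 and 135 CPM with dTAG-13 and 195 and 150 CPM in untreated gastruloids.

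**Figure D4:**
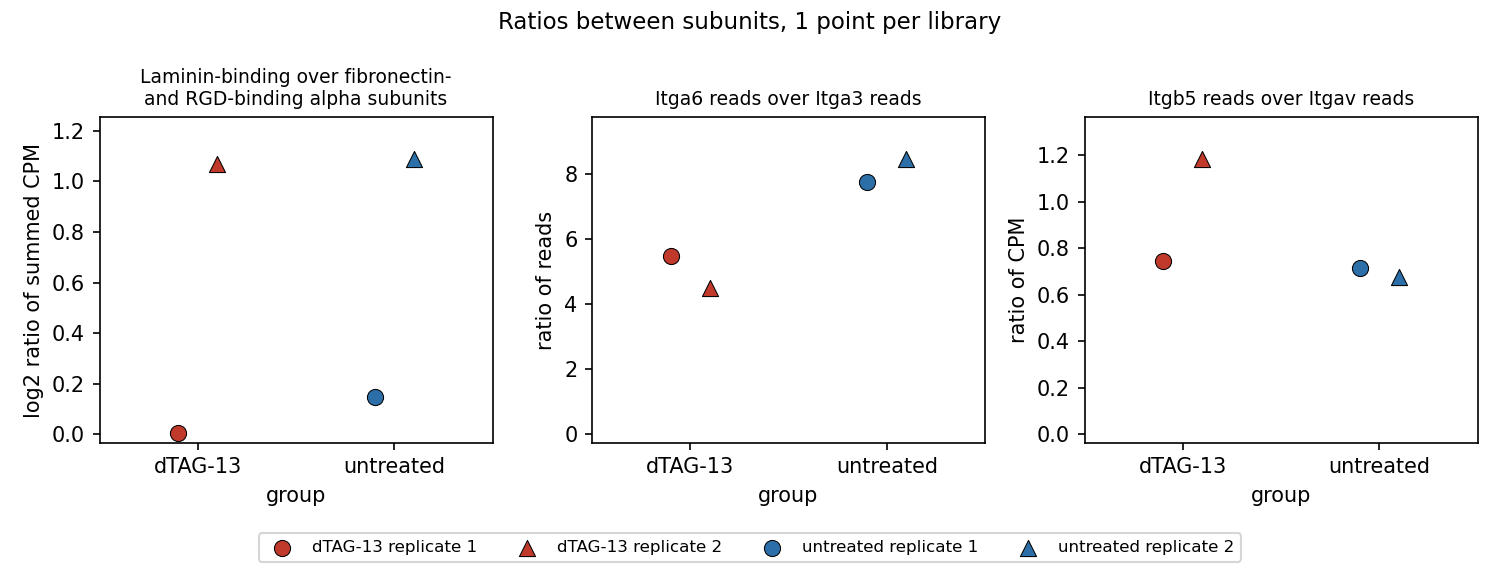
Ratios between subunits with 1 point per library, dTAG-13 left of untreated and circles and triangles for replicates 1 and 2: the log2 ratio of laminin-binding to fibronectin-binding and RGD-binding alpha chains, Itga6 to Itga3 reads, and Itgb5 to Itgav CPM. The first follows the replicate number (0.0040 and 0.15 in number 1, 1.07 and 1.09 in number 2). Itga6 to Itga3 is 5.49 and 4.50 with dTAG-13 and 7.77 and 8.47 in untreated gastruloids. Only the first ratio was planned beforehand.

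Marker genes of several cell types moved with the group or with the number. Beside the counts below, 50.9% of all genes tested had a fold change above 1. All 19 epithelial markers had a fold change above 1, and their summed level was 1392 and 2616 CPM with dTAG-13 and 773 and 1081 CPM in untreated gastruloids. The libraries stood in the same order for this sum as for Itga3 and Itgb4: dTAG-13 replicate 2 highest, then dTAG-13 replicate 1, untreated replicate 2 and untreated replicate 1. The 10 surface ectoderm markers summed to 178 and 450 CPM with dTAG-13 and 94.3 and 198 CPM in untreated gastruloids, and all 9 tested were above 1 (Krt5 and Krt14 of this list are also on the hemidesmosome list below). Of 11 gut endoderm markers tested 8 were above 1, with sums of 496 and 493 CPM with dTAG-13 and 458 CPM in each untreated library. All 15 neural tube progenitor markers were below 1, at 274 and 332 CPM with dTAG-13 and 420 and 638 CPM in untreated gastruloids.

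Endothelial, cardiac and lateral plate, and mesenchymal marker sums were lower in both libraries numbered 2 than in both numbered 1. The same held for Itga4, Itga5, Itga8, Itgav, Itgb1 and Itgb8. In untreated gastruloids the log2 differences of Itga4, Itgav, Itgb1 and Itgb8 were small, at -0.0041, -0.069, -0.17 and -0.061. Endothelial markers summed to 256 and 106 CPM with dTAG-13 and 293 and 90.0 CPM in untreated gastruloids, with 11 of 13 below 1. Cardiac and lateral plate markers summed to 117 and 27.2 CPM with dTAG-13 and 83.8 and 16.4 CPM in untreated gastruloids, with 7 of 8 tested above 1. Mesenchymal markers summed to 868 and 445 CPM with dTAG-13 and 996 and 593 CPM in untreated gastruloids, with 13 of 14 below 1. Neural crest markers summed to 144 and 120 CPM with dTAG-13 and 117 and 70.7 CPM in untreated gastruloids, with 3 of 6 tested above 1 and Foxd3 at 0 in every library. No other marker list had a member at 0 in all libraries. The part of these cell types in the subunit levels was not tested.

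The ligands and partners of these receptors were read from lists of genes. No gene of these lists passed over all genes in edgeR without the replicate block. Of all genes tested, 50.9% were above 1. At an unadjusted p under 0.05 in edgeR, 2.29% of all genes were higher and 1.23% lower. Of 16 laminin chains and basement membrane partners tested, 12 were above 1 and 4 below, 2 had an unadjusted p under 0.05, both higher, and the median log2 fold change was 0.20. Hspg2, which codes for perlecan, was at 346 and 357 CPM with dTAG-13 and 244 and 200 CPM in untreated gastruloids, a log2 fold change of 0.67 ± 0.15 (adjusted p = 0.774 by edgeR), and it was the member that DESeq2 called (adjusted p = 0.0491). Both dTAG-13 libraries were higher in Hspg2 than both untreated ones. The lower members nearest to the threshold were Lama2, at a log2 fold change of -1.29 ± 0.94, and Lamb2, at -0.14 ± 0.15.

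Among 18 ligands of the fibronectin-binding and RGD-binding receptors, 11 were above 1 and 7 below, 1 in each direction had an unadjusted p under 0.05, DESeq2 called 0, and the median was 0.16. Npnt, coding for nephronectin, the basement membrane ligand of α8β1, was at 18.1 and 20.5 CPM with dTAG-13 and 9.11 and 13.1 CPM in untreated gastruloids (log2 fold change 0.80 ± 0.26, adjusted p = 1.00). Vtn, which codes for vitronectin, the ligand of αvβ5, was at 2.64 and 3.82 CPM with dTAG-13 and at 6.63 and 5.61 CPM in untreated gastruloids, a log2 fold change of -0.92 ± 0.38 (adjusted p = 1.00). Both genes had groups that did not overlap, Npnt higher and Vtn lower with dTAG-13. Spp1, coding for osteopontin, had a log2 fold change of 0.43 ± 0.25 and Fbn1, coding for fibrillin-1, of -0.28 ± 0.47. Fn1, the fibronectin gene, looked at for its role after its values were seen, was at 1818 and 1024 CPM with dTAG-13 and 1309 and 955 CPM in untreated gastruloids, with the libraries numbered 1 the higher, as for Itga5.

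Of 25 integrin activators and adaptors tested, 17 were above 1 and 8 below, the median was 0.08, and none had an unadjusted p under 0.05 in edgeR or was called by DESeq2. Fermt1, the kindlin of epithelia, was at 7.25 and 14.1 CPM with dTAG-13 and at 6.55 and 6.58 CPM in untreated gastruloids (log2 fold change 0.70 ± 0.38), most of it from dTAG-13 replicate 2. Bcar1, a docking protein of focal adhesions, had a log2 fold change of 0.22 ± 0.14, Tns1, which codes for a tensin, of -0.52 ± 0.39, and Itgb1bp1 of -0.14 ± 0.23. Of 9 hemidesmosome components and partners of laminin-binding integrins tested, 6 were above 1 and 3 below, 1 had an unadjusted p under 0.05 and DESeq2 called 0. That member was Cd9, a tetraspanin, at 28.3 and 30.7 CPM with dTAG-13 and 22.7 and 19.9 CPM in untreated gastruloids (log2 fold change 0.47 ± 0.17). Cd63 had a log2 fold change of 0.15 ± 0.15, Cd82 of -0.24 ± 0.34 and Cd81 of -0.06 ± 0.14. Col17a1, the collagen of hemidesmosomes that accompanies β4 in skin, was at 0.938 and 0.849 CPM with dTAG-13 and 1.43 and 0.979 CPM in untreated gastruloids, and was looked at after its values were seen.

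Other matrix receptors were split, with 5 of 9 above 1, 1 of them at an unadjusted p under 0.05 and 0 called by DESeq2. Bcam, a receptor of the laminin α5 chain, was at 34.2 and 49.3 CPM with dTAG-13 and at 15.7 and 29.5 CPM in untreated gastruloids, a log2 fold change of 0.89 ± 0.35 (adjusted p = 1.00). Its libraries stood in the same order as those of Itga3. Sdc4, a syndecan that works beside α5β1, had a log2 fold change of 0.34 ± 0.14 (unadjusted p = 0.0494), Cd44 of -0.51 ± 0.27 and Ddr1 of -0.33 ± 0.19. Of the other integrin subunits, 16 in all, 10 were tested, 6 above 1 and 4 below, none had an unadjusted p under 0.05 in edgeR and DESeq2 called 0. Itgb7, known from lymphocytes, was at 3.07 and 3.82 CPM with dTAG-13 and 2.94 and 2.22 CPM in untreated gastruloids. Itga1, a collagen receptor chain, was at 11.4 and 3.40 CPM with dTAG-13 and 6.85 and 4.27 CPM in untreated gastruloids. Itga2b, best known from platelets, was at 3.24 and 2.80 CPM with dTAG-13 and 5.50 and 1.87 CPM in untreated gastruloids. Itgb6, the epithelial RGD receptor chain, had 1 read in dTAG-13 replicate 1 and 0 in the others, where 3 reads correspond to 0.236 to 0.261 CPM.

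The genes whose pattern over the 4 libraries was most like the mean of Itga3, Itga6 and Itgb4 were 2610002M06Rik, Lsr, Zswim1, Axin2 and Zbtb45. Their log2 CPM, centred on its own mean, lay within a root mean square distance of 0.0185 to 0.0395 of that mean, among 10197 genes compared. Of those genes, 1123 lay within 0.2. The mean averages genes that did not move together, so a gene near it need not follow any single subunit. In untreated replicate 2 the mean was at 0.052, where Itga6 was at 0.33, Itga3 at -0.086 and Itgb4 at -0.087. Lsr, a protein of tricellular junctions, was at 69.8 and 96.0 CPM with dTAG-13 and at 54.7 and 76.3 CPM in untreated gastruloids. Axin2, a WNT target and feedback gene, was at 138 and 190 CPM with dTAG-13 and at 102 and 153 CPM in untreated gastruloids.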

How the data were processed

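The authors deposited raw counts for each gene symbol, 1 table per library, ending in HTSeq summary lines. The submitters' processing notes list the builds mm10 and GRCm38.p6 and the tools HTSeq 0.12.4, STAR 2.7.6a, DESeq2 1.34.0 and fastp 0.20.1, with no roles. Annotation and strand setting are not given there. Libraries were made with ribosomal RNA depletion, per the labels' protocols.

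Titles gave the groups. Groups were tested with edgeR 4.0.16 (R 4.3.3): filterByExpr (minimum count 10, total 15), TMM, robust glmQLFit and glmQLFTest (two-sided), the group as the only term, Benjamini-Hochberg adjustment over 13602 genes, threshold 0.05. Each SE is the log2 fold change over the root of its F statistic. Differences within a number use log2 CPM with a prior count of 2. DESeq2 1.42.0 was an alternative. The test was tried on simulated data.

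Members and lists were chosen with earlier results of these data known. Named beside the members were, from each list, up to 2 genes in each direction with the smallest p whose average log2 CPM was 1 or more; marker lists are given here as counts and sums only, and other genes are marked as picked later. The values of 1 gene that the rule picks are not reported here. Lrrc33 was matched to Nrros as an older symbol. Coordinates are RefSeq's for GRCm38.p6.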

Additional observations from a re-analysis of the deposited data

How the results depend on the processing

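The samples share only a number, and the labels tie it to no culture or day. Deviations of same-numbered libraries from their group mean correlated over genes (Pearson r = 0.631, 13602 genes, no test). edgeR with a replicate block called 636 genes (395 higher, 2.90% of genes tested, and 241 lower, 1.77%) against 0 without it. It then called 3 of the 10 subunits, all higher: Itga3 (adjusted p = 0.0018), Itgb5 (0.0085) and Itga8 (0.0312). DESeq2 called 39 genes, and 158 with the block, an alternative chosen after seeing the data, and none of the 10 subunits in either. Hspg2 was called by DESeq2 and with the block by both tools, Bcam with the block by both, and Npnt with the block by edgeR. RLE or upper quartile factors, no filter, a filter at 50 counts and leaving out mitochondrial and the 50 highest genes changed no call and no direction of the subunits. Leaving out 1 library at a time called 0 genes and 0 subunits. The number of subunits without overlap, 3, then ranged from 4 to 9, since an arm had 1 library. The laminin-binding median ranged from 0.27 to 0.86 and the other from -0.40 to 0.37. Directions turned for Itga4 (-1.003 to 0.32), Itga5 (-0.51 to 0.43), Itga6 (-0.39 to 0.20), Itga8 (-0.81 to 1.67), Itgav (-0.20 to 0.30), Itgb1 (-0.14 to 0.37) and Itgb8 (-0.29 to 0.35), and not for Itga3 (0.37 to 0.86), Itgb4 (0.27 to 0.95) or Itgb5 (0.39 to 0.57). They also turned for Zeb2 (-0.65 to 0.10), Itga1 (-0.71 to 1.01), Itga2b (-0.86 to 0.68), Lama2 (-2.42 to 0.29), Fbn1 (-0.96 to 0.16), Itgb1bp1 (-0.31 to 0.040) and Cd81 (-0.17 to 0.046). A lone library in an arm is assumed to vary like the others. The cause was not tested.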

Other observations

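Some integrin subunits had unlike levels in libraries 1 and 2 of the same group. Itga9, whose product pairs with β1 and binds tenascin and other ligands, was at 69.6 and 17.7 CPM with dTAG-13 and at 61.9 and 16.1 CPM in untreated gastruloids. It was lower in both libraries numbered 2, by a log2 difference of -1.96 with dTAG-13 and -1.93 in untreated gastruloids. Itga8 was lower in number 2 by -2.25 with dTAG-13 and -1.50 in untreated gastruloids, and Itga5 by -0.95 and -0.71. Itga4, Itgav, Itgb1 and Itgb8 were also lower in number 2, by -1.30, -0.51, -0.53 and -0.64 with dTAG-13. In untreated gastruloids their differences were smaller, at -0.0041, -0.069, -0.17 and -0.061. Itga3, Itga6 and Itgb4 were higher in number 2. Their differences were 0.43, 0.14 and 0.65 with dTAG-13 and 0.45, 0.57 and 0.45 in untreated gastruloids. Itgb5 was higher in number 2 with dTAG-13 (0.16) and lower in untreated gastruloids (-0.15). These genes were picked after their values were seen.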
